A study of Mus musculus with 2 samples.

Results

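The cytosolic ribosomal proteins are the protein subunits of the ribosome that translates nuclear-encoded mRNAs. They were examined in liver tissue of PiZ mice, a C57BL/6 strain carrying the human gene for the Z variant of alpha-1 antitrypsin (ATZ) with its own promoter. Members were the array probe sets whose platform annotation names a single symbol made of Rpl or Rps and a number, Rplp0 to Rplp2 or Rpsa. Pseudogene symbols and the Rps6k kinases were left out. This gave 51 probe sets for 45 genes, out of 30142 genes named by 30604 probe sets with a single symbol. By symbol, 25 of the 45 genes belonged to the large subunit and 20 to the small subunit. Membership follows from the symbol alone.

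Of the 45 genes, 33 encode established subunits, 18 of the large and 15 of the small subunit, and are called core members below. The other 12 carry a matching symbol but are something else. Rpl3l, Rpl7l1, Rpl10l, Rpl22l1, Rpl39l and Rps27l are paralogous forms of a subunit. Rpl6l, Rpl32l, Rps3a2, Rps3a3 and Rps23rg1 are further loci resembling a subunit gene. Rps19bp1 encodes a protein that binds Rps19 and is no ribosomal protein. These 12 are kept in the counts, because the naming rule takes them, and the core members are also given alone.

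The study set globule-containing liver tissue against globule-free tissue, both cut by laser capture from Cresyl Violet stained sections of PiZ livers. Globules are inclusions in which misfolded ATZ collects inside hepatocytes. Both groups came from untreated PiZ mice, 3 months old, on standard chow, so both carried the human transgene, and no wild-type animal enters the comparison. Each group was 1 array, hybridised with RNA pooled from 2 mice, and whether the same mice gave both pools is not stated in the labels. There was therefore no replicate spread, no SD and no test: every difference below describes these 2 arrays. All values are log2 signals, and every difference is globule-containing minus globule-free. In captured tissue, fewer cells of a type and less RNA per cell cannot be told apart.

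Each ribosome has a small subunit, which reads the mRNA, and a large subunit, which joins the amino acids. Cells make the subunit proteins in matched amounts. Their mRNAs are among the most abundant in the cell, and most begin with a C followed by a run of pyrimidines, the terminal oligopyrimidine (TOP) motif. Through this motif the mTOR pathway, with the RNA-binding protein Larp1, adjusts their translation to nutrients and stress, while the transcription factor Myc is known to raise output of ribosomal protein genes. Hepatocytes hold many ribosomes because they secrete large amounts of plasma protein. An array measures the mRNA level only, not its translation and not the number of ribosomes.

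The start of a ribosomal protein mRNA is the stretch that carries the TOP motif. RefSeq promoter windows on GRCm38.p6 were available for 28 of the 33 core members, as 34 windows because some genes have several starts. Below are the 10 bases before and the 20 bases from the annotated start for the members with the highest and lowest differences that had a single window, with the longest run of pyrimidines in capitals. The first 4 are Rpl12, Rpl35, Rps15 and Rps4x, highest among the core members of their subunit over probe sets above background, and the last 3 are Rpl7a, Rpl37a and Rpsa, among the lowest. The value of Rpl12, and 1 of the 2 probe sets averaged for Rpl35 and for Rpl7a, came from another chromosome than the gene. Probe sets on the gene's chromosome gave 0.46 for Rpl12, naming a further symbol, 0.50 for Rpl35 and -0.07 for Rpl7a. The first 2 are under the 0.56 of Rplp0.
Rpl12 (chr2:32961702-32961731, plus strand): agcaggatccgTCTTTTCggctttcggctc
Rpl35 (chr2:39005112-39005141, minus strand): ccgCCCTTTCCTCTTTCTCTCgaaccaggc
Rps15 (chr10:80292421-80292450, plus strand): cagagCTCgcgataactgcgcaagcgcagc
Rps4x (chrX:102189372-102189401, minus strand): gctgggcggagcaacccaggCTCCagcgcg
Rpl7a (chr2:26910797-26910826, plus strand): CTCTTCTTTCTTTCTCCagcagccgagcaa
Rpl37a (chr1:72711250-72711279, plus strand): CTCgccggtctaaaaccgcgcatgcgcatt
Rpsa (chr9:120127756-120127785, plus strand): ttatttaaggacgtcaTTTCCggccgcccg

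Within the bases shown, the longest pyrimidine run was 18 bases in Rpl35 and 17 bases in Rpl7a, whose differences were 0.72 and 0.01. It was 3 bases in Rps15 and Rpl37a, whose differences were 0.89 and 0.07. The runs of Rpl7a and Rpl37a start at the first base shown, so they may reach further upstream. Within the bases shown, long and short runs thus stood on both sides. A run of at least 8 pyrimidines lay in 10 of the 34 windows of core members (29.4%), against 11.2% of all promoter windows in the table. That length was chosen after the values were seen. Searched on the sense strand within the same stretch, the string CTTTCC was in 3 of 34 windows (8.82%, against 1.28% of all) and CTCTTT also in 3 (8.82%, against 1.02%). CTTTTC was in 1 window (2.94%, against 1.01%) and CCTTTT in 0, against 0.758% of all. These strings overlap one another, and at least 1 of the 4 was present in 6 of the 34 windows (17.6%) and in 1153 of all 32851 windows (3.51%). The ETS-family string CCGGAAG, searched on both strands of the whole promoter window, was in 14 of 34 windows (41.2%), against 8.86% of all. The YY1 string AAGATGGC, searched in the same way, was in 1 of 34 (2.94%), against 2.75% of all. These are matches of letters in an annotated window.

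A gene was taken as above the floor where its mean log2 signal over both arrays was at least 4.76, the median of all probe sets with a single symbol. Of the 45 genes, 42 passed and 3 did not. Rpl10l, a retroposed copy of Rpl10 known from testis, had 4.25 in globule-containing and 4.23 in globule-free tissue. Rpl3l, the form known from skeletal and heart muscle, had 3.92 and 4.01 on the same arrays, and Rpl39l, a testis form, had 3.70 and 3.69. All 3 were at background in both arrays. Background was the level that 95% of the probe sets for odorant and vomeronasal receptors, genes not used by liver, stayed under: 4.86 on the globule-containing array and 5.04 on the globule-free array. The members nearest above the floor were Rps23rg1, with 5.88 against 5.53, Rps14, with 6.16 against 5.93, and Rps19, with 6.16 against 5.97.

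Ribosomal protein signals were mostly a little higher in globule-containing than in globule-free tissue. Of the 42 genes above the floor, 39 had a difference above 0, against 54.5% of all 15023 genes above the floor. The median difference was 0.37, with an interquartile range of 0.20 to 0.52, against a median of 0.05 and a range of -0.25 to 0.39 for all genes. A difference of at least 1.5-fold upwards was reached by 8 of the 42 members (19.0%), against 16.0% of all genes, so this share was close to the background. No member was lower by at least 1.5-fold, against 11.9% of all genes, and no member was lower by at least 2-fold, against 5.26%. The single gene at least 2-fold higher was Rpl32l, against 6.47% of all genes. The members' differences ran from -0.41 to 1.10, most of them above 0, with a share past 1.5-fold upwards near that of all genes and none past it downwards.

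How the arrays were scaled bears on these values. With the 2 arrays quantile-normalized or loess-fitted against each other, 33 of the 42 members instead of 39 had a difference above 0, against 49.9% and 49.2% of all genes. Then 4 members instead of 8 were at least 1.5-fold higher (9.52%, against 13.5% and 13.4% of all genes), and the median difference of the large subunit was 0.19 or 0.18 instead of 0.37. The 33 core members alone, 32 of them above 0, had a median of 0.32. Of these, 6 were at least 1.5-fold higher (18.2%, against 16.0% of all genes without rescaling).

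**Figure D1:**
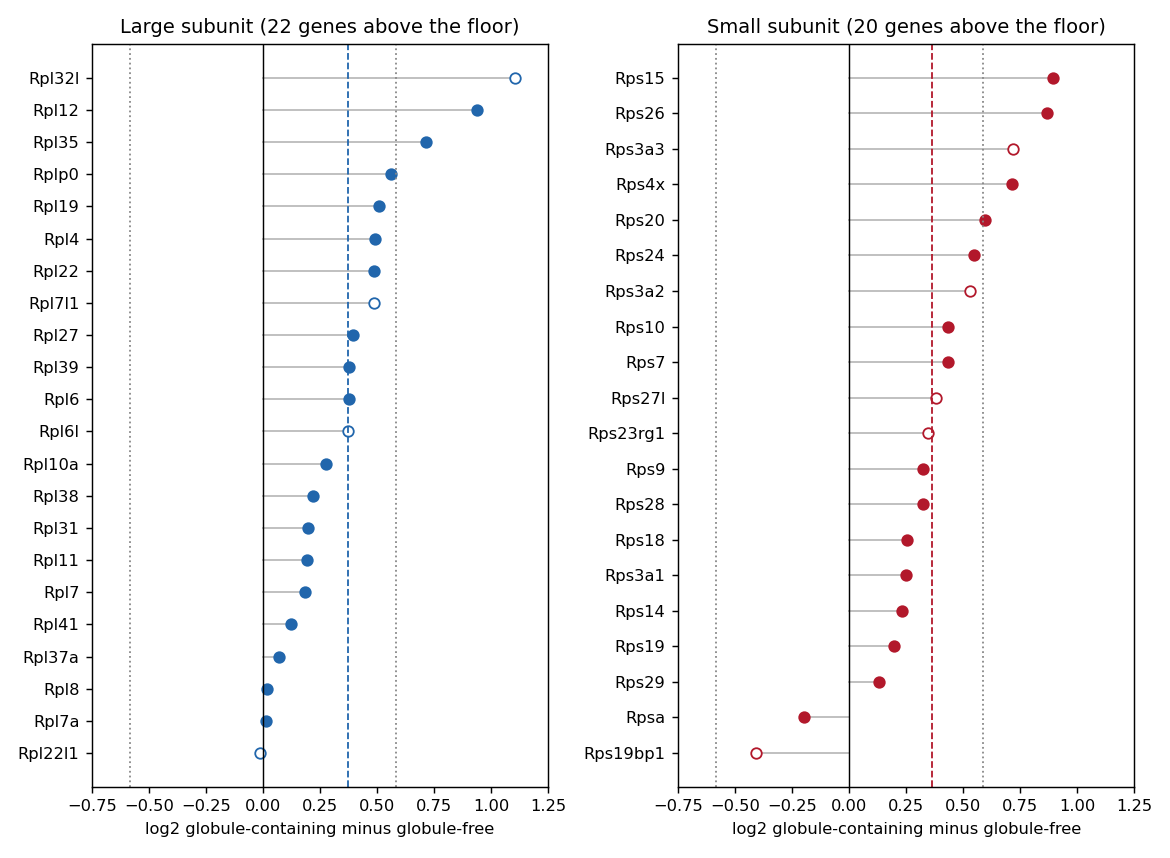
Log2 difference, globule-containing minus globule-free, of each ribosomal protein gene above the floor, by subunit, with filled points for core members and open points for related genes. Solid lines mark 0, dotted lines a 1.5-fold difference either way, and dashed lines the median of each subunit (0.37 large, 0.36 small). Rps26 is drawn at its mean of 3 probe sets, which includes 1 at background in globule-free tissue; 39 of the 42 points lie right of 0.

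The large and small subunits had like medians. In the large subunit, 21 of 22 genes lay above 0 and the median difference was 0.37. Of these genes, 3 were past 1.5-fold upwards (13.6%, against 16.0% of all genes). In the small subunit, 18 of 20 genes lay above 0, 5 were past 1.5-fold upwards (25%), and the median was 0.36. Among core members alone, the medians were 0.33 for 18 large-subunit genes and 0.32 for 15 small-subunit genes. The large-minus-small difference of medians was 0.01, and over the alternatives run it lay between -0.11 and 0.04.

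**Figure D2:**
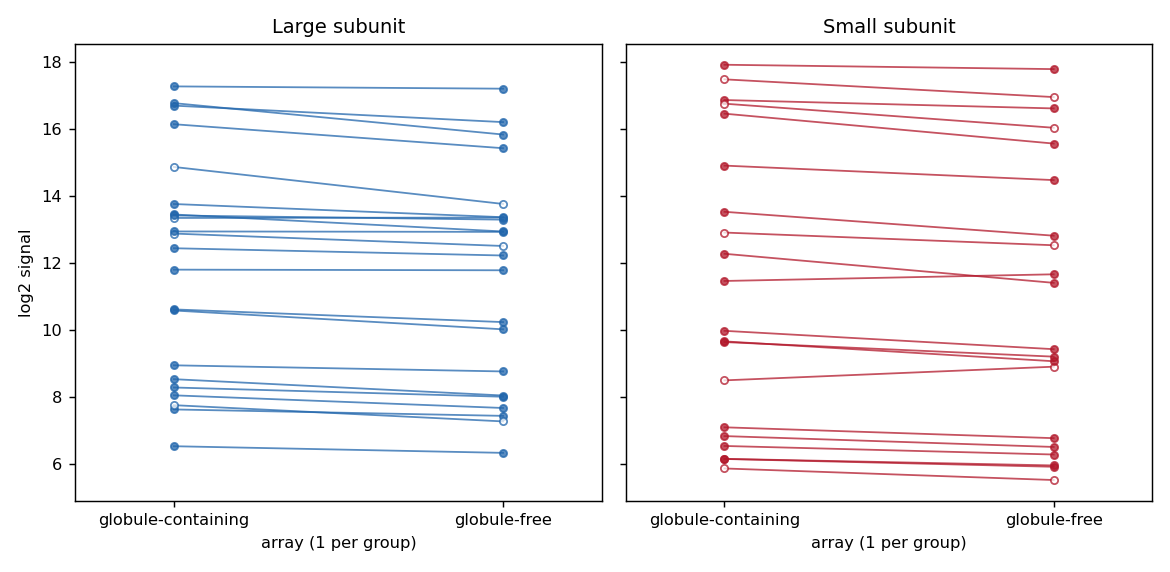
Log2 signal of each ribosomal protein gene above the floor in the globule-containing and the globule-free array, with a line joining the values of a gene and open points for related genes. 39 of the 42 lines slope down to the right; Rps19bp1 and Rpsa slope up, and Rpl22l1 is nearly flat.

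In the large subunit, the stalk is the site where translation factors bind and hydrolyse GTP. Rpl12, which forms the base of the stalk, had 16.79 in globule-containing and 15.85 in globule-free tissue, a difference of 0.94 (1.92-fold). That probe set lies on another chromosome than the gene. A probe set on the gene's own chromosome, which names a further symbol, had 7.25 against 6.79, a difference of 0.46, and a second one of several symbols had 15.75 against 14.70 (1.05). Rplp0, which anchors the acidic stalk proteins, had 10.59 against 10.03, a difference of 0.56 (1.48-fold). Both member values were in the upper part of the large-subunit genes. The acidic stalk proteins themselves, Rplp1 and Rplp2, had no member probe set. Probe sets that name them with further symbols gave 18.52 against 18.32 for Rplp1 and 7.0 against 6.82 for Rplp2. These differences, 0.20 and 0.18, were under the median of the members. A probe set named after a pseudogene of Rplp1 had 9.46 against 8.79, a difference of 0.67, above that median.

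Around the exit of the tunnel through which the new peptide leaves, Rpl35 had 16.16 against 15.44, a difference of 0.72 (1.64-fold). Rpl4, which lines the tunnel, had 16.71 against 16.22, and Rpl19, which also takes part in a bridge to the small subunit, had 13.46 against 12.95. Rpl39, a very small protein inside the tunnel, had 10.63 against 10.25. The 7 members placed at the exit had a median difference of 0.49. Rpl31, another exit protein, had 6.54 against 6.34, a difference of 0.20, so the exit proteins were not all high.

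Rpl5 and Rpl11 form a particle with the small ribosomal RNA of the large subunit and, when free, bind Mdm2, the ligase that degrades p53. Rpl11 had 7.64 in globule-containing and 7.45 in globule-free tissue. Rpl5 was seen only by probe sets naming several symbols or a pseudogene, and these gave 16.13 against 15.07, 10.01 against 9.09, and 12.38 against 11.31. The pair thus gave unlike values, 0.19 for Rpl11 and 0.92 to 1.08 for the probe sets of Rpl5.

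The lowest large-subunit values were near 0. Rpl7a had 12.95 in globule-containing and 12.94 in globule-free tissue as the mean of 2 probe sets that disagreed in sign: the one on its own chromosome had 8.59 against 8.67, and the other 17.31 against 17.22. Rpl8, which lies near the site of peptide bond formation, had 11.81 against 11.79. Rpl37a, a zinc-binding protein, had 17.29 against 17.22, and Rpl41, the smallest ribosomal protein, had 13.43 against 13.31 as the mean of 2 probe sets. One of these was at the top of the scale, with 19.92 against 19.80, where a difference is compressed; the other had 6.94 against 6.81. The remaining large-subunit core members had differences between 0.18 in Rpl7, with 8.96 against 8.77, and 0.49 in Rpl22, with 8.54 against 8.06.

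In the small subunit, Rps15 was the highest core member. Rps15, a protein of the head near the decoding site, had 16.47 in globule-containing and 15.58 in globule-free tissue, a difference of 0.89 (1.86-fold). Rps26, which touches the mRNA where it leaves the ribosome, had 12.29 against 11.42 as the mean of 3 probe sets, a difference of 0.87. These probe sets disagreed: the one at the gene's own chromosome had 16.67 against 16.13, the second had 14.51 against 13.86, and the third had 5.68 against 4.27. The third was at background in globule-free tissue, which bounds it at least 1.56-fold higher, while the other probe sets differed by 0.54 and 0.65. Over those alone Rps26 had a difference of 0.59 (1.51-fold), under that of Rps4x.

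Rps4x, the X-linked form of a protein of the small-subunit body, had 13.54 against 12.83, a difference of 0.71 (1.64-fold). Rps20, a protein of the head, had 9.67 against 9.08 (1.51-fold). Rps29, a zinc-binding protein of the head, had 17.93 against 17.80, a difference of 0.13. The 7 members placed in the head had a median of 0.32, the median of the core members. Mutations in several ribosomal protein genes cause Diamond-Blackfan anaemia in humans, and the 10 members on that list had a median of 0.41.

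Averaged over its probe sets, Rpsa was the single core member with a lower signal in globule-containing tissue, with 11.48 against 11.67, a difference of -0.20. It encodes the ribosomal protein also known as the laminin receptor. Rps19, the gene most often mutated in Diamond-Blackfan anaemia in humans, had a member probe set close to the floor with a difference of 0.20. Rps14 had a difference of 0.23. The remaining small-subunit core members lay between 0.25 in Rps3a1 and 0.55 in Rps24, which had 9.99 in globule-containing and 9.44 in globule-free tissue. Rps3 and Rps6 had no probe set of their own among the members. Probe sets naming them with further symbols gave 7.82 against 7.70 for Rps3, which lines the mRNA entry channel, and 9.97 against 9.79 for Rps6, the substrate of the S6 kinases. For Rps6 that is a difference of 0.18, whereas its 4 pseudogene probe sets above the floor had differences of 0.56 to 0.73.

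Related forms could be set beside their subunits. Rpl22l1, the paralog of Rpl22, had 13.36 in globule-containing and 13.37 in globule-free tissue, a difference of -0.01, against 0.49 for Rpl22. Rps27l, a paralog known as a p53 target, had 12.92 against 12.54, a difference of 0.38. Probe sets naming Rps27 together with Rps27rt had 18.08 against 17.82 and 18.55 against 18.21. The differences of Rps27 and its paralog were thus alike, while those of Rpl22 and its paralog were not. Rpl7l1, which is known to act in ribosome assembly, had 7.77 against 7.28, a difference of 0.49, against 0.18 for Rpl7. Probe sets naming both Rpl36a and Rpl36al had 13.36 against 12.98 and 7.11 against 6.80, and these cannot be assigned to one of the genes.

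Rps19bp1, also known as a regulator of the deacetylase Sirt1, had the lowest difference of all members, with 8.51 in globule-containing and 8.92 in globule-free tissue (-0.41). Rpl32l had the highest, with 14.88 against 13.78, a difference of 1.10 (2.15-fold). Rps3a3 had 16.77 against 16.05, a difference of 0.72 (1.65-fold), and Rps3a2 had 17.50 against 16.97, whereas Rps3a1, the core gene they resemble, had 16.88 against 16.63. Both extremes of the members, and the only one past 2-fold, were therefore genes outside the core. Near-identical copies can share labelled RNA, so the values of such loci are uncertain as to source.

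The same caution applies to probe sets away from their gene. The chromosome in the probe-set identifier could be compared with that of the RefSeq gene for 48 of the 51 member probe sets: 41 lay on the gene's own chromosome and 7 on another. Over the whole array, 22538 of 22630 comparable probe sets (99.6%) lay on the gene's chromosome, and the 7 are among the other 92. The 38 own-chromosome probe sets above the floor had a median difference of 0.36. Of these, 4 were at least 1.5-fold higher (10.5%, against 16.0% of all genes). The 7 others had a median of 0.34, with 3 at least 1.5-fold higher (42.9%). Rpl12 was seen as a member only through such a probe set, and Rpl35 had 17.55 against 16.62 on another chromosome and 14.76 against 14.26 on its own. Most own-chromosome probe sets were thus above 0, but their share past 1.5-fold upwards was under that of all genes. Several of the larger values rested on the others.

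**Figure D3:**
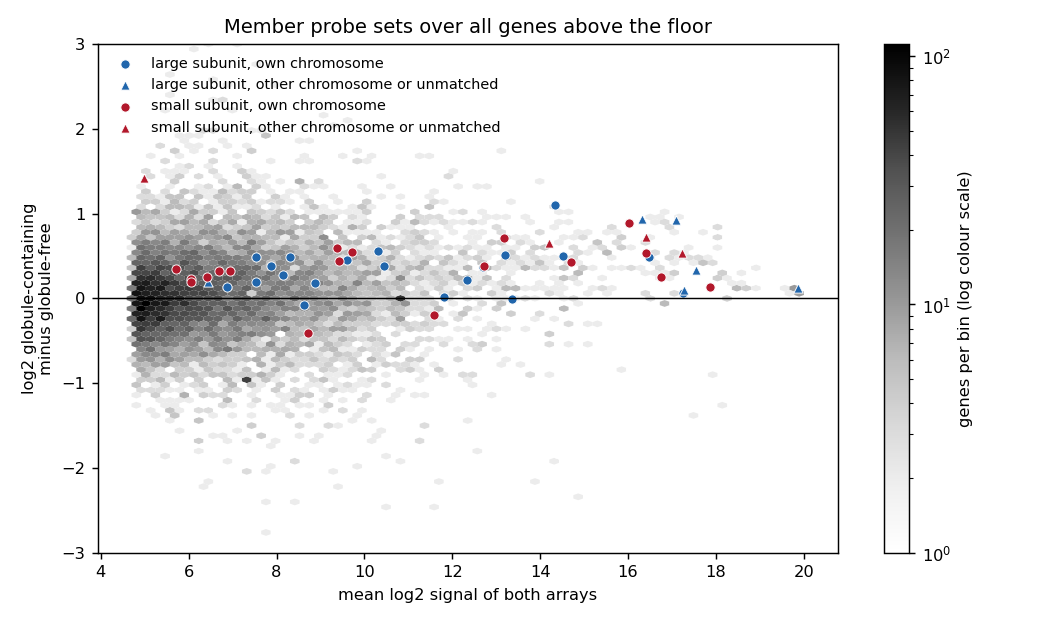
Log2 difference, globule-containing minus globule-free, against the mean log2 signal of both arrays; grey hexagons count all genes above the floor (log colour scale), points are member probe sets by subunit, and triangles lie on another chromosome than the gene or were not matched. Points lie mostly above 0 at low and high signals alike; the axis ends at 3 either way.

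Differences were also read by signal, in bins chosen after the values were seen, since bright genes as a whole were slightly higher in globule-containing tissue. Under a mean log2 signal of 8, the 10 members had a median difference of 0.29, against 0.03 for other genes. From 8 to 12 the medians were 0.41 for 12 members and 0.07 for other genes, and from 12 to 16 they were 0.39 for 12 members and 0.23 for other genes. From 16 upwards they were 0.51 for 8 members and 0.22 for other genes. In each bin the members' median was above that of the other genes, and part of the distance to all genes went with the brightness of the members.

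Many ribosomal protein genes have processed pseudogenes, whose probe sets can take up RNA of the parent gene. Member, several-symbol and pseudogene probe sets were therefore gathered by family, for 72 families of which 45 were large and 27 small. Of these, 39 families had no member probe set at all. Of 202 pseudogene probe sets, 184 passed the floor, with a median difference of 0.51 and 161 above 0. Of the 184, 79 were past 1.5-fold upwards (42.9%, against 16.0% of all genes) and 2 downwards. Counted by probe set, the subunits had unlike medians here. The 121 large-subunit pseudogene probe sets had a median of 0.48, with 34.7% past 1.5-fold upwards. The 63 of the small subunit had a median of 0.74, with 58.7% past it. Of these 63, 13 were of Rps12, with a median of 0.94, and 12 of Rps19, with a median of 1.22. These families thus weigh heavily on the small-subunit figures. With 1 median per family of bright probe sets, the values were 0.49 for the large and 0.46 for the small subunit. The 52 probe sets naming several symbols had a median of 0.37 (0.43 large, 0.29 small), with 51 above 0. The families as a whole thus lay on the same side as the members. These probe sets share sequence and are not independent of one another.

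Among the 158 family probe sets with a mean log2 signal of at least 12, chosen as clearly bright after the values were seen, the median was 0.52. Taking the median of the bright probe sets in each of 55 families gave 0.48, with 0.49 for 34 large-subunit and 0.46 for 21 small-subunit families. Family medians ran from -0.31 to 1.40. In 25 families with at least 3 bright probe sets, 115 in all, the median range within a family was 0.19 and the widest 0.80, against 1.71 between the lowest and highest family medians. Of the sum of squares among the 115 probe sets, 89.0% lay between families. Probe sets of one family, which share sequence, thus gave like values, and families differed from each other.

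The highest family was Rps19, whose 4 bright pseudogene probe sets had differences of 1.32 to 1.44, with median levels of 14.82 in globule-containing tissue against 13.41 in globule-free tissue. Its member probe set, near the floor, had only 0.20, so the 2 kinds of probe set for Rps19 disagreed. The following families were picked out after their values were seen. Rps12, a small-subunit head protein, had 14 bright probe sets with differences of 0.74 to 1.11 and a median of 0.94. Rpl14 had a median of 0.91 and Rps15a of 0.89. At the other end, Rpl35a had 0.02, Rpl3, which reaches the site of peptide bond formation, had -0.06, and Rpl7a had -0.08. The 3 bright pseudogene probe sets of Rpsa split in sign, with -0.31, -0.34 and, in the brightest of them, 0.11. Their median was -0.31, and the member probe set of Rpsa was also under 0. Family medians of subunits that enter the ribosome in equal numbers thus covered a range of 1.71.

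**Figure D4:**
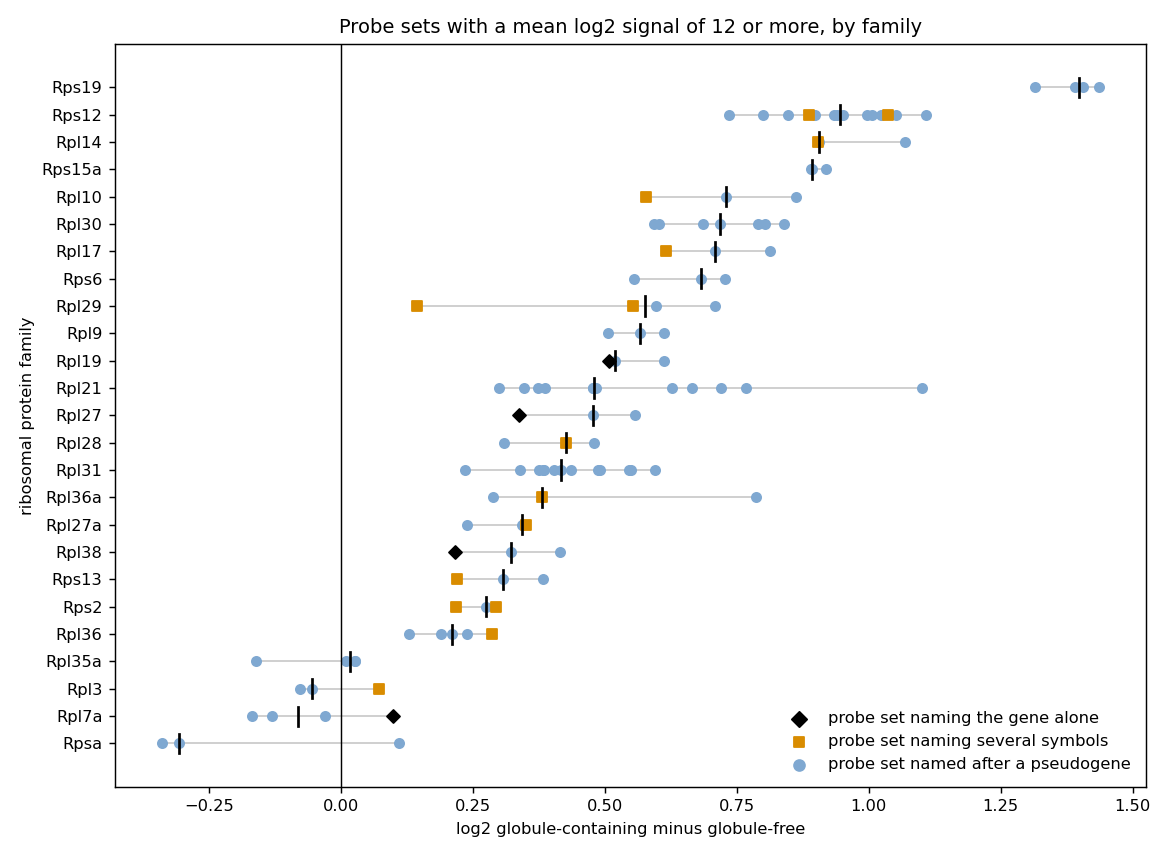
Log2 difference, globule-containing minus globule-free, of each probe set with a mean log2 signal of at least 12 in the 25 families with at least 3 such probe sets, sorted by family median (black tick). Points of one family mostly lie close together, with a median range of 0.19, though those of Rpl21 run from 0.30 to 1.10. Family medians run from -0.31 in Rpsa to 1.40 in Rps19.

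The rest of the translation machinery was read from gene lists, with no set test. Fau, whose product is cleaved to a ubiquitin-like protein and the small-subunit protein Rps30, had 14.73 in globule-containing and 14.26 in globule-free tissue, a difference of 0.47. Rack1 was not analysed here. Of 33 initiation factors, 23 had a difference above 0, 10 were past 1.5-fold upwards and 1 downwards, and the median was 0.28. The upward share, 30.3%, was above the 16.0% of all genes, and the downward share, 3.03%, under the 11.9%. Their spread was wider than that of the ribosomal proteins. Eif6, which keeps free large subunits from joining small ones, had 8.28 against 6.55 (3.31-fold), and Eif4e, which binds the mRNA cap, had 10.43 against 9.16 (2.41-fold). Eif3c, a subunit of the scaffold factor of initiation, had 13.14 against 12.15 (1.99-fold). At the low end, Eif2b1, part of the exchange factor of eIF2, had 5.91 against 6.74, a difference of -0.83. Eif4h, which assists the helicase of the cap complex, had a difference of -0.51, and Mcts1, which acts in reinitiation, one of -0.38. Pabpc1, the poly(A)-binding protein and itself a TOP mRNA, had 15.21 against 14.86.

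The 15 elongation and release factors had a median of 0.31, with 13 above 0 and 3 past 1.5-fold upwards, against 16.0% of all genes. Eef1g and Eef1b2, subunits of the complex that reloads the main elongation factor, had 10.61 against 9.46 (2.22-fold) and 11.62 against 10.99. Eef1e1, a component of the tRNA synthetase complex, had 8.80 against 8.03. The 2 main elongation factors, both TOP mRNAs, differed less. Eef1a1, which brings the charged tRNA, had 17.61 against 17.48, and Eef2, which drives translocation, had 15.93 against 15.61. The lowest values on this list were 0.11 for the kinase Eef2k, -0.03 for Eif5a and -0.21 for the release factor Gspt1.

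Ribosome assembly factors had values on both sides. Of 84 above the floor, 54 had a difference above 0, the median was 0.13, and 12 were past 1.5-fold upwards while 7 were past it downwards. These shares, 14.3% and 8.33%, were a little under the 16.0% and 11.9% of all genes. The helicase Ddx21 had 9.24 in globule-containing and 7.83 in globule-free tissue (2.64-fold). Wdr43, a factor of early small-subunit assembly, had 9.32 against 8.0 (2.50-fold), and Nhp2, a protein of the pseudouridine-forming snoRNPs, had 7.17 against 5.98 (2.30-fold). These lay at one end of a wide range. At the other end, Imp3, a protein of the U3 snoRNP, had 7.81 against 9.05 (-1.24), the large-subunit factor Rpf1 had 7.55 against 8.67 (-1.12), and Rrn3, an initiation factor of RNA polymerase I, had 7.76 against 8.53 (-0.78). The nucleolar proteins Npm1 and Ncl had 14.38 against 13.82 and 12.09 against 11.69.

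Among 39 regulators of mTOR signalling and TOP mRNAs, the median was 0.08, and 9 were past 1.5-fold upwards (23.1%, against 16.0% of all genes) and 3 downwards (7.69%, against 11.9%). The median was -0.01 with quantile normalization and -0.05 with loess, so its side is not settled. Myc had 8.23 in globule-containing and 6.49 in globule-free tissue, a difference of 1.74 (3.33-fold), and its partner Max had 12.73 against 10.65 (4.23-fold). Rheb, the GTPase that activates mTOR complex 1, had 11.28 against 10.18 (2.14-fold). These were the 3 highest. Nprl2, part of a complex that restrains mTOR at low amino acid levels, had 5.45 against 6.90 (-1.46), Lamtor4, of the lysosomal anchor, had a difference of -0.78, and Deptor, an mTOR inhibitor, one of -0.69. Eif4ebp1, which blocks Eif4e when mTOR is inactive, had 9.19 against 8.36 (1.77-fold), and Larp1 had 11.41 against 11.37. Rps6kb1 was not analysed here.

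Of 31 factors that rescue and clear stalled ribosomes, 3 were past 1.5-fold upwards (9.68%, against 16.0% of all genes) and 1 downwards (3.23%, against 11.9%), and the median was 0.15. Impact, an inhibitor of the stalling-responsive kinase Gcn2, had 10.33 against 7.58 (6.71-fold), the widest difference on these lists. The next were Abcf2, with 0.65, and Tcf25, with 0.64. The lowest were the rescue factor Hbs1l, with -0.65, the helicase Ascc3, with -0.26, and Usp21, which had 4.75 in globule-containing tissue, not above background, against 5.14.

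The mitochondrial ribosome, which is built from other proteins and translates mitochondrially encoded mRNAs, lay on the other side. Of its 75 genes above the floor, 23 had a difference above 0 and 52 below 0, and the median was -0.22, against 0.37 for the cytosolic members. Of these genes 10 were past 1.5-fold downwards (13.3%, against 11.9% of all genes) and 4 upwards (5.33%, against 16.0%). The medians of the 2 ribosomes therefore lay on opposite sides of 0.

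**Figure D5:**
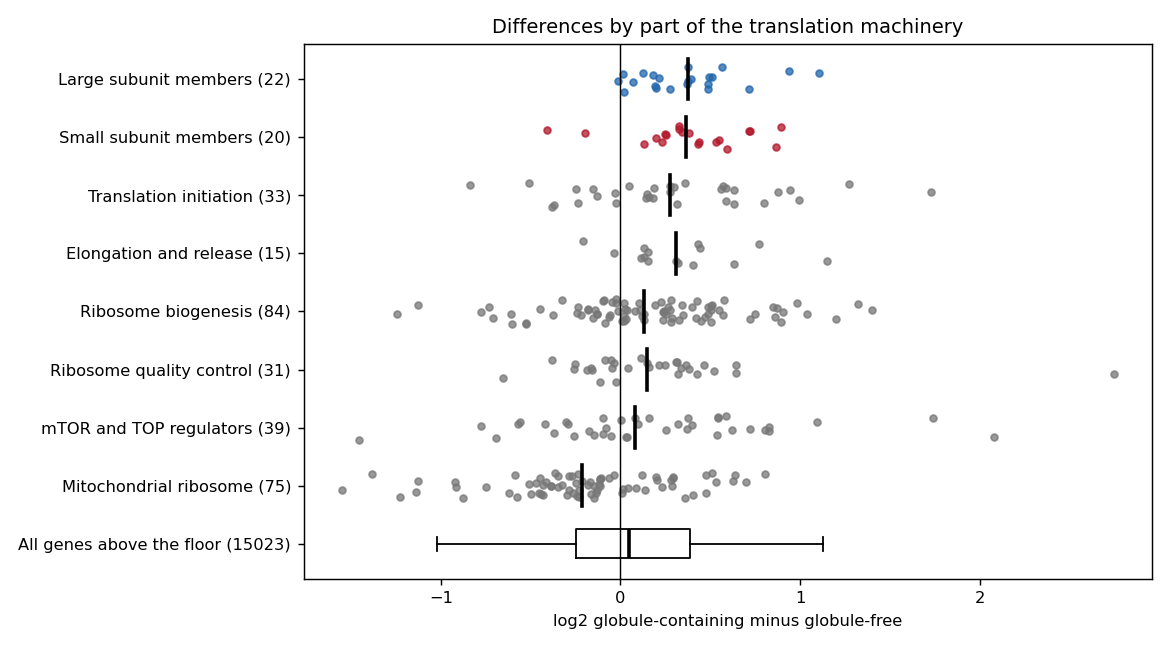
Log2 difference, globule-containing minus globule-free, of each gene above the floor in the subunit groups and the other translation lists (numbers of genes in brackets), with black ticks at medians. The box at the bottom spans the interquartile range of all genes above the floor, -0.25 to 0.39, with its median at 0.05; the medians of the cytosolic subunits lie near 0.37 and that of the mitochondrial ribosome at -0.22.

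Markers of the cell types in the captured tissue moved with the groups too. Hepatocyte genes defined both pools: Alb, Apoa2 and Trf were near the top of the scale on both arrays, and the 19 listed genes had a median difference of -0.39. Of the 5 above 0, Alb, Apoa2, Trf and Ahsg were at the ceiling, where a difference cannot be read, and the fifth, Cyp3a11, had 19.11 against 19.02. Of 16 stellate and fibroblast markers, 14 passed the floor, all 14 above 0 and 12 past 2-fold upwards. Of these 12, Col1a2, Acta2, Timp1 and Hand2 were at background in globule-free tissue. Over background, Timp1 was at least 1.52-fold and Hand2 at least 1.91-fold higher, so a 2-fold difference is not shown for either. Linear signals of the 14 markers summed to 52088 on the globule-containing array and 5327 on the globule-free array. Des and Col5a1 were at background. The 22 macrophage markers summed to 349513 against 17281, 11 of them past 2-fold upwards and 5 downwards. Of all genes, 6.47% were past 2-fold upwards and 5.26% downwards. Lyz2, with 17.96 against 12.62, made up most of the globule-containing sum. The 5 lower markers were Clec4f, Cd5l, Vsig4, Timd4 and Marco, 2.92-fold to 8.28-fold lower. Adgre1, C1qa, C1qb and C1qc had differences between -0.08 and 0.12. Endothelial markers differed less as a list, with 15 of 17 above the floor, a median of 0.08 and sums of 6057 against 4704. Rspo3 (8.24-fold), Eng (2.61-fold) and Clec4g (1.53-fold) were past 1.5-fold upwards (20%, against 16.0% of all genes). Cdh5, 1.74-fold lower, was past it downwards (6.67%, against 11.9%). Vwf and Wnt2 were at background. Cholangiocyte markers (6 of 9 above the floor, Krt7 and Cftr at background) had a median of 0.44 and summed to 454 against 202. Of the 6, Tspan8, Epcam, Muc1 and Krt19 were at background in globule-free tissue. Over background they were at least 6.50-fold, 1.66-fold, 1.13-fold and 1.05-fold higher. Neutrophil markers (6 of 12 above the floor) had a median of 0.19 but summed to 4716 against 307, since S100a8 had 11.34 against 5.42 (60.7-fold) and S100a9 had 10.91 against 6.37 (23.2-fold). Ly6g, Csf3r, Cxcr2 and Camp, also above the floor, had differences between -0.04 and 0.27. Mpo, Elane and Ngp were at background on both arrays. Of 16 lymphocyte markers, 6 passed the floor and summed to 698 against 281, with Ptprc 3.95-fold and Il7r at least 4.16-fold higher. The others above the floor differed less: Cd3g by 0.16, Cd8b1 by 0.26 and Cd79b by -0.31, with Nkg7 at background in globule-free tissue. Cd3e, Cd4, Cd8a and Ms4a1 were at background. The part of these cell types in the ribosomal protein values was not tested.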

How the data were processed

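RNA of laser-captured PiZ liver tissue, 1 pool of 2 mice per group, was extracted, amplified by whole-transcriptome amplification and hybridised to Affymetrix transcript-cluster arrays, per the labels' protocols. The deposited values are log2 signals for 72688 probe sets; the Transcriptome Analysis Console is named in the submitters' processing notes, with genome build and normalization not given in the sources used here. Probe sets were named from the platform annotation, and those of 1 gene were averaged; genes with a mean of at least 4.76 entered counts. Differences are globule-containing minus globule-free, computed with pandas 2.3.3 and numpy 2.4.6 and checked on simulated data. With 1 array per group no test was possible and precision cannot be given. Named genes were the 5 highest and 5 lowest per subunit, the members next to the floor, listed subunits and paralogs, and the 3 highest and 3 lowest of each other list with a few set regulators. Members and lists were chosen with earlier results of these data known. Promoter windows are from RefSeq. Alternatives covered scaling, floor, probe-set choice and membership.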

Additional observations from a re-analysis of the deposited data

How the results depend on the processing

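The medians of all members and of each subunit stayed above 0 under the 14 alternatives, of which 4 were chosen after seeing the data (core members alone, own-chromosome probe sets alone, members with a mean signal of at least 8, probe sets at background left out). The large-minus-small difference of medians, 0.01, changed sign under several and lay between -0.11 and 0.04. The other translation lists were recomputed with no floor, quantile normalization and loess alone, and the mTOR and TOP list had a median of -0.01 and -0.05 under the last 2. The median of all members lay between 0.20 and 0.41, of the large subunit between 0.18 and 0.38 and of the small subunit between 0.24 and 0.48. Quantile normalization gave 0.19 for the large subunit, 4 members past 1.5-fold upwards and 0 past 2-fold; loess gave a median of 0.20 for all members, 0.18 for the large subunit, and the same 2 counts. Both also set the median of all genes near 0, and 13.5% and 13.4% of all genes were then at least 1.5-fold higher. The elongation and release list had 0.13 and 0.12. Counting every probe set as a member gave 2 at least 2-fold higher. Adding probe sets with several symbols gave 76 of 80 above 0 and 2 at least 2-fold higher. Then 17 were at least 1.5-fold higher (21.25%, against 16.0% of all genes). The 33 core members alone had 0 at least 2-fold higher. Own-chromosome probe sets alone had 4 of 38 at least 1.5-fold higher (10.5%, against 16.0% of all genes). A median was counted as moved past 0.17, the median gap between 2 probe sets of a gene. A count was taken as moved where it changed by more than 1.5-fold, or to or from 0. No paired analysis was possible because each group is 1 array. Signals near background and near the top of the scale limit what differences can be read.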
